A study of Mus musculus with 9 samples.

Results

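The cells described here are 216 cells gated as brain endothelial cells, out of 19686 kept cells of 9 libraries of neocortex from mouse embryos. They were chosen by measured values, the UMIs of 6 endothelial, 2 microglial and the haemoglobin genes. Cells with more than 1% of their unique molecular identifiers (UMIs, the tag that each captured transcript carries) on haemoglobin genes were left out, which kept 19686 of 22147 deposited cells. A gated cell then had at least 3 of 6 genes detected, *Cldn5*, *Flt1*, *Kdr*, *Ly6c1*, *Itm2a* and *Pecam1*, and no UMI of the microglial genes *C1qa* and *C1qc*. Of the 216 cells, 162 lay in the 5 libraries whose genotypes were compared, 81 in 3 wild-type (WT) libraries and 81 in 2 *Tcf4* knockout (KO) libraries.

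The study asked what the transcription factor TCF4 does in the developing cortex, with droplet-based single-cell RNA sequencing of microdissected neocortices at E18.5 and 1 library per animal. WT and KO embryos were littermates from matings of *Tcf4* haploinsufficient parents, on the background that the labels give as *Tcf4*ex4WT/lacZ, with no treatment. KO embryos carry a homozygous insertion of a *lacZ*/neomycin cassette ahead of exon 4, which removes the long isoform TCF4B and leaves shorter isoforms such as TCF4A. The allele is present in every cell of the embryo, so an endothelial difference need not arise in endothelial cells. WT replicates 2, 3 and 4 (WT2, WT3 and WT4) were compared with KO replicates 4 and 5 (KO4 and KO5), and WT1, WT5, KO1 and KO2 are given as values. The study itself dropped samples with too few cells after filtering, and 1 WT animal whose *Tcf4* was lower than in the KO. WT1, KO1 and KO2 held only 131, 347 and 120 deposited cells, and WT5 held 3770. Whether the labels of these 4 libraries hold was not tested, so their values cannot decide whether a difference goes with the genotype. The labels say that the libraries are separate samples.

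Endothelial cells line the blood vessels. In the brain they form the blood-brain barrier: tight junctions sealed by claudin 5 close the path between neighbouring cells, vesicle traffic across the cell is kept low, and dedicated carriers bring in glucose, amino acids, thyroid hormone and lipids while ABC transporters pump drugs out. These properties are acquired before birth, under Wnt signals that reach the vessel from neural tissue, and they depend on pericytes and on a shared basement membrane. TCF4 is a basic helix-loop-helix (bHLH) factor that binds DNA at E-boxes, the letters CANNTG.

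Libraries differed in ways that touch every comparison below. The 5 compared libraries held 3487769 to 29767293 UMIs over all deposited cells, and pairs of them shared 2 to 46 cell barcodes. WT2 and WT3 were deposited as log-normalized values and WT4, KO4 and KO5 as counts, so the form of deposit and the genotype cannot be told apart for 2 of the 3 WT libraries. KO5 held no *Xist* UMI and the other 8 libraries did, so the sexes were not balanced. The haemoglobin limit took 0.420, 1.34 and 0.564% of cells in WT2, WT3 and WT4 but 13.9% in KO4 and 40.4% in KO5. It also took 80 cells of KO4 and 19 of KO5 that would have passed the gate, against 0, 1 and 1 cells in WT2, WT3 and WT4. *Tcf4* in the libraries labelled WT5, WT1 and KO1 went against their labels, as given below.

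Gated cells were 26 of 1185 kept cells in WT2, 13 of 1617 in WT3 and 42 of 6173 in WT4. In the KO they were 69 of 4201 in KO4 and 12 of 2303 in KO5. As a share of kept cells this was 2.19, 0.804 and 0.680% in the WT and 1.64 and 0.521% in the KO, so the genotypes overlapped. The mean share was 1.23% ± 0.841 (SD, n = 3) in the WT and 1.08% ± 0.793 (SD, n = 2) in the KO (2-sided exact permutation test, p = 0.8, where 0.1 is the smallest p that 3 against 2 libraries allow). The direction turned when haemoglobin-rich cells were kept, at 0.685 percentage points more in the KO. Without WT2 the share was 0.340 percentage points higher in the KO, and without KO5 it was 0.416 points higher. In the other libraries the gate took 6 of 127 cells in WT1, 31 of 3630 in WT5, 11 of 332 in KO1 and 6 of 118 in KO2.

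The gate filled differently in the compared libraries of the 2 genotypes. In WT2, 15 of 26 gated cells had all 6 gate genes, in WT3 8 of 13 and in WT4 15 of 42. In KO4 6 of 69 had all 6, and in KO5 0 of 12, which allows a share of up to 25%. Cells with exactly 3 gate genes, the minimum, made up 3.85, 0 and 16.7% of the gated cells in WT2, WT3 and WT4, against 55.1% in KO4 and 66.7% in KO5. KO cells were shallower, and the part of depth in this contrast was not tested. As a description on the gate genes themselves, after every cell had been thinned to 1800 UMIs, 3 of 24 gated cells in WT2, 1 of 13 in WT3 and 9 of 34 in WT4 stood at the minimum, against 40 of 56 in KO4 and 5 of 6 in KO5. Outside the comparison and before thinning, the share at the minimum was 50% in WT1, 48.4% in WT5, 18.2% in KO1 and 66.7% in KO2. It thus did not follow the labels there.

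**Figure D1:**
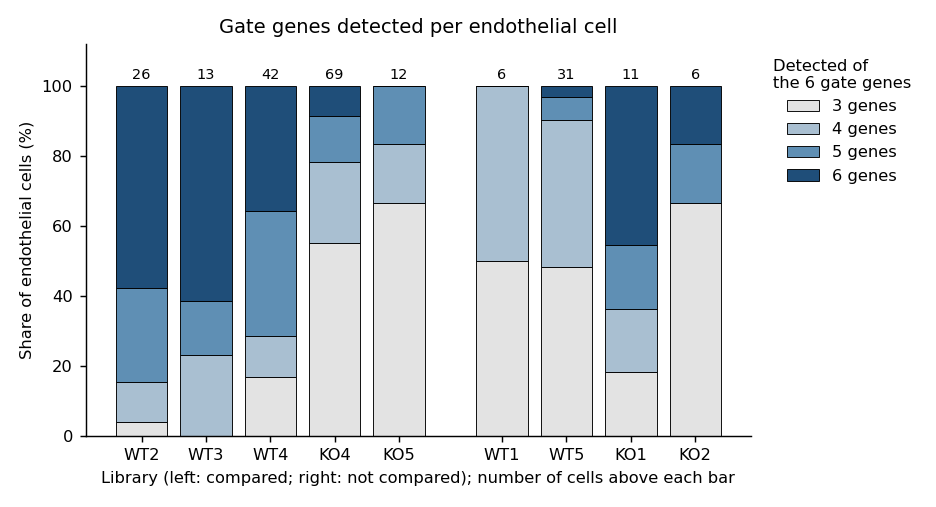
Gate genes detected per gated cell in each library. The share of gated cells at the minimum of 3 genes is 3.85, 0 and 16.7% in WT2, WT3 and WT4, 55.1% in KO4 and 66.7% in KO5. Outside the comparison it is 50% in WT1, 48.4% in WT5, 18.2% in KO1 and 66.7% in KO2.

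The endothelial label was then checked on 9 other endothelial markers that the gate does not use (*Cdh5*, *Esam*, *Egfl7*, *Tie1*, *Emcn*, *Ramp2*, *Ptprb*, *Slco1a4* and *Abcb1a*). At least 2 of them were detected in 26 of 26 gated cells of WT2, 12 of 13 of WT3 and 39 of 42 of WT4. The same held for 50 of 69 gated cells of KO4 but for only 3 of 12 of KO5. Among other kept cells the share was 0.173 to 0.473% in the WT and 0.968 and 1.09% in KO4 and KO5, and 0 of 110 cells with at least 3 of 6 microglial genes carried 2, which allows a share of up to 2.73%. The label therefore held for the WT and for most KO4 cells, whereas 9 of the 12 gated KO5 cells did not carry it, so the cells are called gated cells below. In KO5, 6 of the 12 cells had none of the 9 markers, and *Cdh5*, *Tie1* and *Abcb1a* had 0 UMIs in its 12 cells, which at 32427 UMIs in all allows a level of up to 0.925 UMIs per 10000. That limit covers counting error only.

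Transcripts of other cell types differed inside the gate between the compared WT and KO libraries. The summed level of 15 neuronal genes in gated cells, in UMIs per 10000 UMIs of a cell, was 15.4, 13.6 and 27.7 in WT2, WT3 and WT4, against 52.6 and 78.7 in KO4 and KO5. This was 18.0 to 32.8% of the level in the other kept cells of the same WT library, 65.4% in KO4 and 97.0% in KO5. Gated KO5 cells thus held nearly as much neuronal RNA as the rest of their library. At least 2 of 8 neuronal genes were detected in 73.1, 23.1 and 81.0% of gated cells of WT2, WT3 and WT4, and in 84.1 and 100% of those of KO4 and KO5. The summed level of 24 endothelial identity genes ran the other way, at 101, 98.2 and 112 in the WT, 52.4 in KO4 and 24.9 in KO5. Cell by cell, the identity sum exceeded the neuronal sum in 25 of 26, 12 of 13 and 37 of 42 WT cells, in 35 of 69 cells of KO4 and in 2 of 12 cells of KO5. Outside the comparison the neuronal sum was 42.9 in WT1, 58.9 in WT5, 19.9 in KO1 and 29.4 in KO2. The identity sum there was 36.1, 49.8, 105 and 56.1 in the same order, so neither sum followed the labels.

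**Figure D2:**
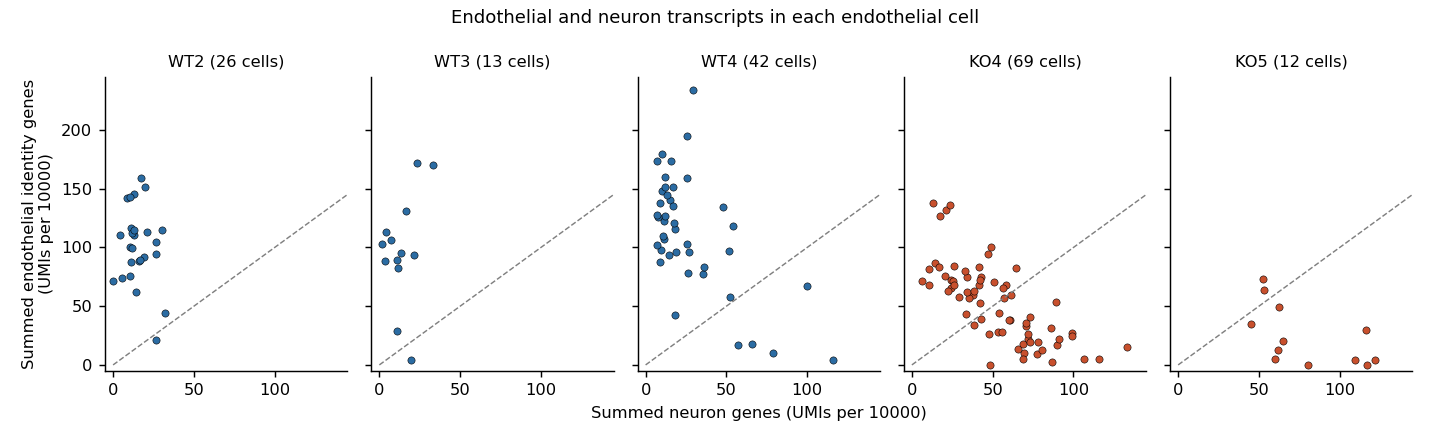
Summed endothelial identity genes (24 genes) against summed neuronal genes (15 genes) in each gated cell of the 5 compared libraries, in UMIs per 10000. Most WT cells lie on the endothelial side, with medians of 94.9 to 117 for the identity sum, while KO5 cells lie on the neuronal side with a median of 16.5.

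Transcripts of further types were measured in the same way. Pericyte and mural genes, 13 in the list, summed to 41.5, 23.6 and 31.4 in gated cells of WT2, WT3 and WT4, to 21.0 in KO4 and to 6.34 in KO5, and to less than 1 in other kept cells of these 5 libraries. Pericytes sit on the vessel wall under a shared basement membrane, and at least 2 of 7 mural genes were detected in 69.2, 30.8, 64.3, 72.5 and 8.33% of gated cells, in the same order of libraries. Erythroid genes summed to 3.84, 9.23 and 4.64 in the WT and to 26.8 and 64.2 in KO4 and KO5, close to the 32.1 and 72.1 of the other kept cells there. Radial glial genes summed to 11 to 14.2 in the WT and to 20.2 and 25.8 in the KO. Microglial genes summed to at most 1.16 and fibroblast genes to at most 0.998 in any of the 5 libraries. The part that RNA of these other types has in the genotype differences below was not tested, and these values belong beside each of them.

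Cells on either side of the gate's threshold were compared as a description. In the WT, the 18 kept cells with 2 gate genes held 2.14 UMIs of *Cldn5* per 10000, the 8 gated cells with 3 held 28.2 and the 38 with 6 held 66.4. In the KO, the 102 cells with 2 gate genes held 7.22, the 46 with 3 held 13.2 and the 6 with 6 held 43.2. *Bsg*, which the gate does not use, stood at 4.77 in WT cells with 2 gate genes, 29.1 with 3 and 106 with 6, and at 10.9, 20.3 and 60.3 in the KO. In these cells, pooled over libraries, the WT step from 2 to 3 genes was therefore sharp and the KO step gradual. Of the 8 WT cells with 3 genes, 1 came from WT2 (*Cldn5* 91.0) and 7 from WT4 (19.2). From 2 to 3 genes *Cldn5* went from 1.41 to 19.2 within WT4, from 7.30 to 14.4 within KO4 and from 7.13 to 7.48 within KO5. *Stmn2*, a neuronal tubulin regulator, stood at 19.5, 12.3 and 3.72 with 2, 3 and 6 gate genes in the WT and at 19.1, 18.2 and 9.40 in the KO. *Actb* behaved unlike these genes, with 42.0 to 101 in WT cells of any gate count and 176 to 224 in KO cells of any gate count.

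Gated WT cells held more UMIs than gated KO cells, without overlap between libraries. The median was 5008, 3794 and 5366 UMIs per gated cell in WT2, WT3 and WT4, against 2571 in KO4 and 2447 in KO5. The difference between 4723 ± 824 (SD, n = 3) and 2509 ± 87.7 (SD, n = 2) had an exact permutation p of 0.2. Genes per gated cell were 2068 ± 210 and 1282 ± 81.3 (SD, n = 3 and 2), with an exact permutation p of 0.1, the smallest possible. Thinned to 1800 UMIs the medians were 1056, 1041, 1038, 1001 and 979 genes in the same order of libraries, so at equal depth all lay within 979 to 1056, still without overlap. Other kept cells of the same libraries had medians of 2454, 3636 and 4356 UMIs in the WT and 2288 and 2216 in the KO.

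Gated cells were set against the other kept cells first, a contrast on which the gate itself rests and which carries no test. Of the gate genes, *Cldn5*, the claudin of the brain endothelial tight junction, stood highest, at 57.0, 66.7 and 43.1 in WT2, WT3 and WT4, against 19.6 in KO4 and 11.3 in KO5, 118 times the level of other cells. *Itm2a* stood 67.4 times above other cells, the VEGF receptors *Flt1* and *Kdr* 55.4 and 46.0 times, the adhesion molecule *Pecam1* 25.9 times and *Ly6c1* 25.3 times. All 6 gate genes were lower in KO4 and KO5 than in each compared WT library, with *Itm2a* at 14.2 to 33.7 against 3.87 and 6.77 and *Kdr* at 6.22 to 8.29 against 2.80 and 3.39. The 20 most enriched genes beyond the gate held, besides endothelial genes, the mural genes *Rgs5* (26.9 times) and *Vtn* (25.7 times). They were led by *Ctla2a* (53.2 times), *Pglyrp1* (45.0 times), *Vwa1* (44.8 times), *Igfbp7* (44.6 times), the matrix protein gene *Sparc* (43.7 times) and *Gng11* (42.2 times). *Igfbp7*, an insulin-like growth factor binding protein of vessels, varied most among libraries, at 4.51 and 3.67 in WT2 and WT3, 32.5 in WT4, 15.7 in KO4, 7.97 in KO5, 16.3 in WT5 and 0 in WT1. Its high values lay in libraries deposited as counts, whatever the genotype (KO against WT log2 0.36, SE 1.16, limma, Benjamini-Hochberg adjusted p = 0.894).

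*Tcf4* itself (ENSMUSG00000053477) was the targeted gene, although 3′ reads do not separate its isoforms. In other kept cells it stood at 12.4, 12.7 and 12.2 UMIs per 10000 in WT2, WT3 and WT4 but at 9.33 and 7.59 in KO4 and KO5. In gated cells it was lower in the WT, at 5.68, 3.18 and 4.57, and it was 6.66 in KO4 and 6.11 in KO5. Gated cells of the KO thus lay above those of the WT, by 0.46 on the log2(value + 1) scale (SE 0.27, limma, adjusted p = 0.299), opposite to the other cells at -0.51 (SE 0.12, adjusted p = 0.0947). The difference between these genotype effects was 0.97 (SE 0.32, adjusted p = 0.0653), which did not pass 0.05. In gated cells with at least 2 of the 9 other markers, 3 of them in KO5, *Tcf4* changed by 0.087 (limma, adjusted p = 0.902). With at least 4 gate genes, which 4 KO5 cells had, its change was 0.16 (limma, adjusted p = 0.829). Scaled to the summed identity genes, as described at the end, it was 1.79 (adjusted p = 0.00984), where the median of all genes was 0.82. Of the libraries left out, the ones labelled WT5 and WT1 had 7.22 and 4.48 in other kept cells, below KO4 and KO5, and KO1 had 16.9, above every WT library.

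The genotypes were compared gene by gene with limma-trend on log2 of the mean over gated cells of UMIs per 10000 plus 1, for the 3133 genes with a mean of at least 0.5, with the animal as the replicate. Fold changes on this scale understate those of low genes. At a Benjamini-Hochberg adjusted p under 0.05, 391 genes were called, which is 12.5% of those tested. Of these, 157 were higher (5.01%) and 234 lower in the KO (7.47%), and the median over all tested genes was -0.06. Genes that the rule used stayed in the fit, so these counts hold 5 gate genes among the falls and 4 haemoglobin genes among the rises. Genes without overlap between the genotypes numbered 557 higher (17.8%) and 798 lower (25.5%). In the other kept cells of the same libraries 57 of these 3133 genes were called (1.82%). The calls rested on KO5 and on which libraries entered. KO5 held 4 cells with at least 4 gate genes and 3 with at least 2 of the 9 other markers. Without WT3, 154 genes were called, among libraries deposited as counts 49, in cells with at least 4 gate genes 106 and in cells with at least 2 of the 9 other markers 139. Without KO5, 9 genes were called, and 375 of 375 main calls tested kept their direction. In that setting, with 0.0312% of all genes called lower, this held for 0 members of the lists below, and *Actb* and the haemoglobin gene *Hba-a1* were the members called higher. The kept directions are no support, because the fit without KO5 reuses the same WT libraries and KO4, its lone KO library. With WT5 added as labelled 0 genes were called by limma, with 483 at an unadjusted p under 0.05, and with all 7 libraries of at least 10 gated cells 0, with 221. EdgeR with TMM scaling called 107 higher and 71 lower on the 5 libraries, edgeR with RLE scaling 112 and 87, and DESeq2 49 and 43, so the excess of falls turned into an excess of rises.

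The direction of change followed how endothelial a gene was in the WT. Of 353 tested genes at least 5-fold above other cells in the WT, 167 fell and 0 rose, with a median log2 change of -0.79. Of 33 genes at least 5-fold below other cells in the WT, 29 rose and 0 fell, with a median of 1.24. Of the 2747 genes between, 128 rose and 67 fell. These WT levels enter the contrast itself, so the counts are a description and no test.

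**Figure D3:**
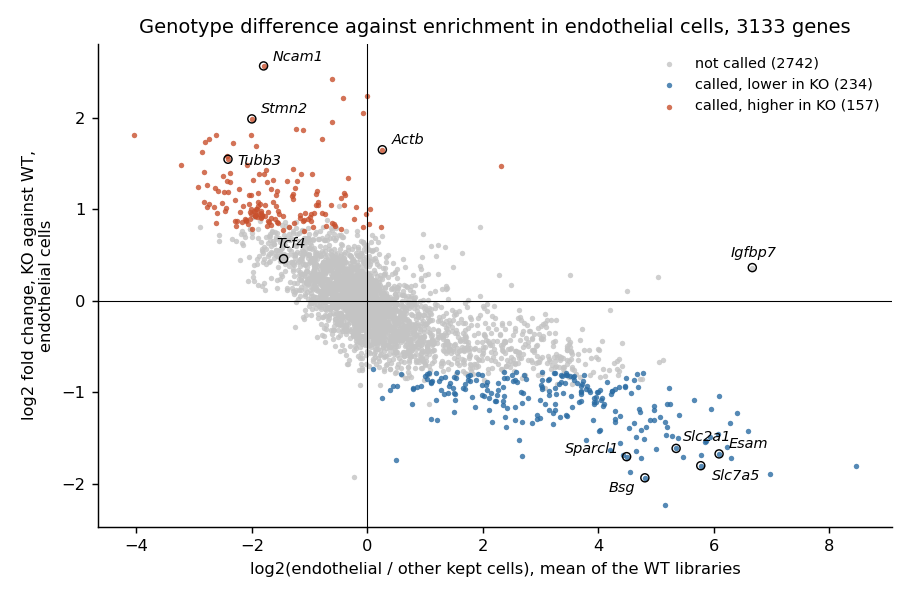
Log2 fold change of KO against WT in gated cells (vertical) against the log2 ratio of gated to other kept cells in the WT (horizontal) for 3133 tested genes. Genes at least 5-fold enriched in WT gated cells (353) have a median change of -0.79, and genes at least 5-fold depleted (33) a median of 1.24.

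Barrier transporters were lower in the KO almost throughout. Of 25 genes in the list, 21 were tested, 17 fell, 0 rose and the median log2 change was -1.32. Over all genes 7.47% fell and the median was -0.06. In 20 of the 21 the genotypes did not overlap, with every KO value lower, as in 25.5% of all genes. The glucose carrier *Slc2a1*, whose product GLUT1 supplies the brain with its main fuel, stood at 6.85, 10.4 and 6.83 in WT2, WT3 and WT4 but at 3.22 and 0.994 in KO4 and KO5. Every KO value lay below every compared WT value, and the change was -1.61 (SE 0.31, limma, adjusted p = 0.00136). *Slc7a5* and *Slc3a2*, the light and heavy chain of the LAT1 carrier of large neutral amino acids, were lower too. *Slc7a5* measured 11.4, 15.4 and 10.1 against 3.38 and 2.22 (-1.80, SE 0.27, adjusted p = 9.93e-05), and *Slc3a2* 13.4, 14.8 and 8.96 against 3.33 and 3.18 (-1.63, SE 0.27, adjusted p = 0.000341). The cationic amino acid carrier *Slc7a1* was at 12, 5.76 and 7.91 against 3.47 and 1.44 (-1.48, adjusted p = 0.00259). *Slco1c1*, which carries thyroid hormone, was at 3.37, 7.03 and 4.27 against 1.2 and 0.417 (-1.69, adjusted p = 0.000617). *Mfsd2a*, the lipid carrier that keeps transcytosis low in brain vessels, was at 5.31, 3.56 and 4.76 against 1.13 and 0.755 (-1.51, SE 0.27, adjusted p = 0.00073).

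The largest absolute level in the list belonged to *Bsg*, the chaperone of monocarboxylate carriers, with 65.5, 116 and 68.5 in the WT and 28.1 and 14.6 in the KO (-1.94, SE 0.27, adjusted p = 0.000143). The efflux pumps *Abcb1a* (P-glycoprotein) and *Abcg2* were low to begin with, at 0.857 to 2.70 and 1.37 to 2.16 in the WT. In KO4 they stood at 0.267 and 0.285 and in KO5 at 0, where 0.925 is the highest level that 0 UMIs allow. Their changes of -1.15 (adjusted p = 0.0101) and -1.27 (adjusted p = 0.00248) are fitted values against that 0. The iron genes *Slc40a1* (ferroportin, -1.47, adjusted p = 0.00168) and *Tfrc* (the transferrin receptor, -1.09, adjusted p = 0.0134) fell as well. For each transporter named so far the library labelled WT5 lay below WT2, WT3 and WT4, with 2.64 for *Slc2a1*, 20.5 for *Bsg*, 2.64 for *Slc7a5* and 0.870 for *Mfsd2a*. KO1, with 11 gated cells, lay lower than the WT for *Bsg* (15.7) and *Slc3a2* (3.37), and inside or above the WT range for *Slc7a1* (14.3). The sum of all 25 listed transporters was 140 to 210 in WT2, WT3 and WT4, 55.5 in KO4 and 29.6 in KO5. In the libraries left out it was 62.0 in WT1, 43.6 in WT5, 93.4 in KO1 and 86.4 in KO2. It thus did not follow the labels there. Without KO5, 0 of the 21 transporters passed and the median was -1.07. Among cells with at least 2 of the 9 other markers, 12 transporters fell (2.28% of all genes did) with a median of -1.15. KO5 held 3 such cells.

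**Figure D4:**
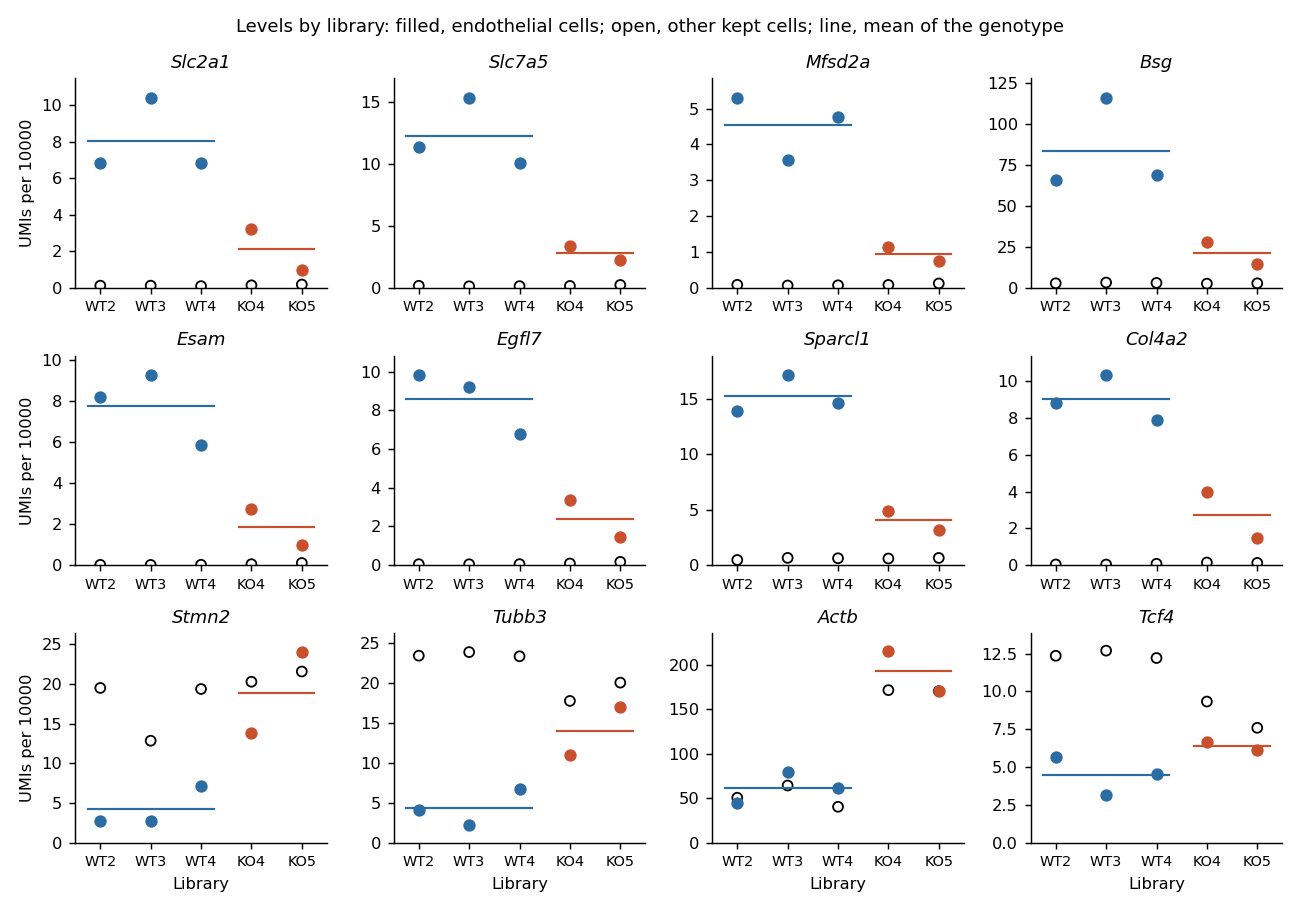
Mean UMIs per 10000 of 12 genes in each compared library, gated cells filled and other kept cells open, with lines at the genotype means. *Slc2a1*, *Slc7a5*, *Mfsd2a*, *Bsg*, *Esam*, *Egfl7*, *Sparcl1* and *Col4a2* are lower in gated cells of KO4 and KO5, *Stmn2* and *Tubb3* are higher there, and *Actb* is higher in gated and other cells alike.

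Promoters of *Cldn5* and of 4 of the transporters that fell are shown for the E-boxes, the letters that bHLH factors such as TCF4 bind. They come from the RefSeq genes of GRCm38.p6 and run 300 bases, mostly upstream of the start of transcription, 5′ to 3′ on the strand of the gene. *Cldn5* lies at chr16:18776597-18776896 (plus strand), *Slc2a1* at chr4:119108495-119108794 (plus), *Mfsd2a* at chr4:122961139-122961438 (minus), *Slco1c1* at chr6:141524104-141524403 (plus) and *Slc7a1* at chr5:148399855-148400154 (minus). Capitals mark every CANNTG.
Cldn5: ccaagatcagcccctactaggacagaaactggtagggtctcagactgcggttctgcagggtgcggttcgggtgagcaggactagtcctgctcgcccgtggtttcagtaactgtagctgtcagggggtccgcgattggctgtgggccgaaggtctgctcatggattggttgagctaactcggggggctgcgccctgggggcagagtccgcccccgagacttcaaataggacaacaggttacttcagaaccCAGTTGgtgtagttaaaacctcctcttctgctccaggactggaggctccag
Slc2a1: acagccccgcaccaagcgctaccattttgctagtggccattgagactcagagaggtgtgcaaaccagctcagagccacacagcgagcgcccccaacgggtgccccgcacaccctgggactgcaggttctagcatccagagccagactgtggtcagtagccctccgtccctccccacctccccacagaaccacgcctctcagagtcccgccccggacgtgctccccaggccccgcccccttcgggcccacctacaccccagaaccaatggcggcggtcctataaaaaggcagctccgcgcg
Mfsd2a: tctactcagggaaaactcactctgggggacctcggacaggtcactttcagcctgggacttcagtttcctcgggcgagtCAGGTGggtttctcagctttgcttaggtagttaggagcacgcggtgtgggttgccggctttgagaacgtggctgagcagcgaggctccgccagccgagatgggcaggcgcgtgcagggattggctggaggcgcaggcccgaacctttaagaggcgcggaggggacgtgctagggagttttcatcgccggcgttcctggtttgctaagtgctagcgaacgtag
Slco1c1: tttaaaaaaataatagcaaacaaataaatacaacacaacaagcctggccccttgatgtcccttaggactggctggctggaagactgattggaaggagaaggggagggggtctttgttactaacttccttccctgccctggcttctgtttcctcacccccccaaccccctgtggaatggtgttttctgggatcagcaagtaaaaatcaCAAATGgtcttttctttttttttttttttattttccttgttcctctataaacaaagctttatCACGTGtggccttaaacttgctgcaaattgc
Slc7a1: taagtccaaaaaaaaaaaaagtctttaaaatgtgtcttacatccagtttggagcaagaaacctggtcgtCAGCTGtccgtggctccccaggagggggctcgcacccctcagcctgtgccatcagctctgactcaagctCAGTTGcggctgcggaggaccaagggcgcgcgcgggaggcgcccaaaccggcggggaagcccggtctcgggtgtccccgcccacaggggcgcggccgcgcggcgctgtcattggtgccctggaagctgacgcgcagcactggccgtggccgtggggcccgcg
CANNTG reads as a match on both strands at once. *Slc2a1* held 0 matches in this window, *Cldn5* and *Mfsd2a* held 1 each, and *Slco1c1* and *Slc7a1* 2 each. The word was found in 72.1% of all 27025 promoters of this length, in 59.8% of those of 2421 tested genes, in 67.1% of 170 promoters of genes called lower and in 62.8% of 113 of genes called higher. The narrower CAGCTG, which is contained in CANNTG, was in 16.1, 12.7, 26.5 and 13.3% of the same groups. Of the 5 promoters shown, only that of *Slc7a1* held it. These are matches of letters and no measure of binding.

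Endothelial identity and junction genes followed the transporters. Of 24 identity genes, all tested, 16 fell and 0 rose, with a median of -1.10 (7.47% of all genes fell, median -0.06). In cells with at least 2 of the 9 other markers, most of them genes of this list, 4 of the 24 fell, with a median of -0.78. Only 3 such cells were in KO5. Outside the comparison the sum of the 24 genes did not follow the labels. It was 36.1 in WT1, 49.8 in WT5, 105 in KO1 and 56.1 in KO2, beside 98.2 to 112 in WT2, WT3 and WT4. *Esam*, an adhesion molecule of endothelial tight junctions, was at 8.19, 9.25 and 5.85 in the WT and 2.74 and 0.959 in the KO (-1.67, SE 0.30, adjusted p = 0.00073). *Egfl7*, a secreted factor of the vessel wall, was at 9.80, 9.21 and 6.78 against 3.34 and 1.47 (-1.54, SE 0.29, adjusted p = 0.00105). VE-cadherin, the product of *Cdh5*, is the adherens junction protein of endothelium, and its transcript was at 3.74, 2.63 and 1.58 against 1.33 and 0 (-1.21, SE 0.33, adjusted p = 0.0221). Further falls in the list were those of *Cd34* (-1.54), *Pglyrp1* (-1.72), *Ramp2* (-1.19), *Emcn* (-1.16), *Ecscr* (-1.09) and *Tie1* (-1.11). Of 22 junction genes, 12 were tested and 4 fell (*Esam*, *Cdh5*, *Ctnna1* and the tricellular junction gene *Lsr*), with a median of -0.72. Those that did not pass included *Ctnnb1*, which encodes beta-catenin, with 4.09, 3.67 and 3.93 against 2.02 and 3.50 (adjusted p = 0.352), and the N-cadherin gene *Cdh2* with 2.77, 2.44 and 1.85 against 3.25 and 2.61 (adjusted p = 0.617). Other kept cells express *Ctnnb1* and *Cdh2* at similar levels, with gated cells 1.54 and 1.02 times above them.

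Receptors of the VEGF and angiopoietin pathway drive sprouting and vessel stability. Of 8 tested genes of the pathway, 2 are the gate genes *Flt1* and *Kdr*, given above as a description. Of the others 2 fell, *Tie1* and the phosphatase gene *Ptprb* (2.12, 3.83 and 1.72 against 0.430 and 0.315, -1.33, adjusted p = 0.00265), and 4 did not pass. *Nrp1*, a coreceptor of VEGF that neurons also express, was at 2.77, 4.06 and 2.90 against 2.09 and 1.04 and did not pass (adjusted p = 0.0746). In the Wnt pathway, which induces the barrier, 9 of 24 genes were tested. The receptor *Fzd6* fell (-0.93, limma, adjusted p = 0.0295), the kinase *Gsk3b* rose (0.96, limma, adjusted p = 0.0161) and 7 genes did not pass. Over all genes 7.47% fell and 5.01% rose. The median of the 9 was -0.42, against -0.06 over all genes. *Nkd1*, a feedback target of the pathway, was at 2.14, 2.15 and 1.54 against 1.02 and 0.714 (-0.65, adjusted p = 0.101). *Sox17* was at 1.48, 5.34 and 1.34 against 0.706 and 0.967 (adjusted p = 0.112).

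Among targets and partners of bHLH factors, the Id genes did not move together. The counts of the lists in this paragraph stand beside 7.47% falls and 5.01% rises over all genes. In cells with at least 2 of the 9 other markers, 3 of them in KO5, 1 member of the bHLH and Id list fell. There 2 fell of the BMP and TGF-beta list, 0 of the Notch list and 0 of the transcription factors. Id proteins bind E proteins such as TCF4 and keep them from DNA. *Id1*, a BMP target in vessels, was at 6.15, 11.9 and 6.97 in WT2, WT3 and WT4 but at 3.73 and 1.19 in KO4 and KO5 (-1.49, SE 0.32, limma, adjusted p = 0.00427). *Id3* was at 7.29, 7.30 and 5.31 against 3.15 and 2.53 (-0.98, SE 0.27, adjusted p = 0.0167). *Id2*, which other kept cells express above gated cells, was at 1.09, 2.33 and 3.31 against 3.28 and 5.33 and did not pass (0.74, SE 0.30, adjusted p = 0.104), although its genotype difference was unlike that of other cells (1.62, adjusted p = 0.0336), where it was 9.22 in the WT and 4.5 in the KO on average. In the list of bHLH and Id factors, 4 of 11 tested genes fell, *Id1*, *Id3*, the Notch target *Hey1* (-1.0, adjusted p = 0.0161) and the hypoxia factor *Epas1* (-1.01, adjusted p = 0.0161), with a median of -0.65. The BMP and TGF-beta list had 4 falls among 9 tested genes, *Id1*, *Id3* and the receptors *Eng* (-1.20, adjusted p = 0.00344) and *Tgfbr2* (-1.02, adjusted p = 0.0104). The Notch list had 2 among 7, *Hey1* and *Mfng*. Of 17 tested endothelial transcription factors, 5 fell, among them *Ets1*, *Elk3*, *Epas1* and *Ppard*. The flow-responsive factor *Klf2* was at 0.956, 1.35 and 5.19 against 3.97 and 1.17, with overlap between the genotypes.

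Most genes of the basement membrane were lower. Of 17 tested matrix genes, 12 fell and 0 rose, with a median of -1.05 (7.47% of all genes fell). In cells with at least 2 of the 9 other markers 5 of the 17 fell, with a median of -0.85. KO5 held 3 of these cells. The sum of all 20 listed matrix genes was 85.6 to 101 in WT2, WT3 and WT4, 37.8 in KO4 and 18.2 in KO5. Outside the comparison it was 28.9 in WT1, 37.0 in WT5, 103 in KO1 and 50.1 in KO2, and so did not follow the labels. *Col4a1* and *Col4a2*, the collagen IV chains of the vessel's basement membrane, were at 10.3, 7.77 and 9.16 against 4.12 and 0.904 (-1.68, SE 0.33, adjusted p = 0.00244) and at 8.80, 10.3 and 7.90 against 4.0 and 1.5 (-1.49, SE 0.29, adjusted p = 0.00161). *Sparcl1* was at 13.9, 17.2 and 14.7 against 4.92 and 3.18 (-1.70, SE 0.25, adjusted p = 9.93e-05). *Sparc* was at 33.7, 35.6 and 22.5 against 12 and 8.75 (-1.46, adjusted p = 0.000355), and the collagen chaperone *Serpinh1* (-1.56) and the linker *Nid1* (-1.41) also fell. Pericytes make several of these proteins as well, and the mural genes *Vtn* (-1.38, adjusted p = 0.00571), *Rgs5* (-1.13, adjusted p = 0.0451) and *Abcc9* (-1.13, adjusted p = 0.00711) fell in the same gated cells, 3 of 8 tested mural genes. The part of mural RNA in the matrix values was not tested.

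Vessel-type markers were called in both directions, and the counts here stand beside 7.47% falls and 5.01% rises over all genes. Of 7 tested arterial genes, 4 fell (*Gja4*, *Hey1*, *Cxcl12* and *Unc5b*) and 1, *Stmn2*, rose, and of 6 tested venous genes 2 fell (*Slc38a5* and *Vwf*). *Stmn2* is in the arterial list but is foremost a neuronal gene. In the tip cell list, 4 of 12 tested genes fell, the collagen IV genes, *Lama4* and *Unc5b*, while *Aplnr* (3.15, 0.897 and 2.08 against 1.14 and 0.338) and *Adm* (2.02, 2.92 and 1.2 against 1.10 and 0.681) did not pass. *Cav1*, the caveolin of endothelial vesicles, fell from 5.59, 8.74 and 4.17 to 2.34 and 0.338 (-1.71, SE 0.35, adjusted p = 0.00339), whereas its partner *Cav2* was at 1.19, 1.49 and 0.729 against 0.574 and 1.12 (adjusted p = 0.665). MHC class I and interferon genes had 4 falls among 9 tested, *B2m* (6.39, 7.07 and 6.63 against 2.32 and 2.37, -1.20, adjusted p = 0.00346), *H2-D1*, *Ifitm3* and *Bst2*. Of 11 tested cell cycle genes 0 fell and 1, *Stmn1*, rose, and at least 2 of 10 cycling genes were detected in 30.8, 7.69 and 23.8% of gated WT cells and in 29.0 and 25% of gated KO cells. Of 11 tested immediate early and stress genes 4 fell, *Junb*, *Ier2*, *Hspb1* and *Cdkn1a*.

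Neuronal genes were higher in gated cells of KO4 and KO5 than in those of the compared WT libraries. Of 15 neuronal genes, 11 were tested, 9 rose and 0 fell, with a median of 1.17, beside 5.01% rises over all genes, so they make up 9 of the 157 rises. *Stmn2* was at 2.79, 2.69 and 7.2 in WT2, WT3 and WT4 but at 13.8 and 24.0 in KO4 and KO5 (1.99, SE 0.33, limma, adjusted p = 0.000816), and in the other kept cells at 17.2 in the WT and 20.9 in the KO on average. *Neurod6*, a factor of excitatory cortical neurons, was at 1.21, 0.415 and 2.05 against 4.57 and 6.65 (1.62, adjusted p = 0.00101), and *Tubb3* at 4.06, 2.24 and 6.68 against 10.9 and 17.0 (1.55, adjusted p = 0.00248). Neuronal genes thus rose in gated KO cells toward the level of the other cells around them. The largest rise among genes outside the rule was that of the neural adhesion molecule *Ncam1*, at 1.80, 0.327 and 2.77 against 12.6 and 14.0 (2.57, SE 0.34, adjusted p = 9.93e-05), and it was also higher in the other KO cells, 16.1 against 5.92 (adjusted p = 0.0105). Radial glial *Fabp7* was at 3.19, 4.64 and 4.98 against 9.22 and 12.1 (1.15, adjusted p = 0.00602). The 4 tested haemoglobin genes, which the rule used, were higher in gated and in other KO cells.

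Another group of rises was shared with all other cells of the KO libraries. *Actb*, cytoplasmic actin, was at 45.1, 79.0 and 61.4 in the WT and 215 and 170 in the KO (1.65, SE 0.21, limma, adjusted p = 6.11e-05), and in other kept cells at 51.7 and 171 on average (adjusted p = 0.0193). Its difference from the other cells was -0.08 (adjusted p = 0.86). In WT5, KO2 and WT1 it was 238, 227 and 324 in gated cells and in KO1 87.2, so it did not follow the labels. Other actin genes did not move with it: *Actg1* was at 24.5, 18.4 and 26.7 against 21.7 and 28.9 and *Tmsb4x* at 149, 157 and 204 against 155 and 127. Of 26 tested genes of the actin list 7 fell, among them *Myl6*, *Msn*, *Tpm4* and *Vim*, beside 7.47% falls over all genes. The list median was -0.38, against -0.06 over all genes, and 0 members fell with edgeR and TMM scaling or with DESeq2. *Nfia* (1.07, 1.38 and 1.35 against 7.63 and 6.82, 1.86), *Clasp2* (1.77), *Dpysl2* (1.87) and *Runx1t1* (1.81) rose in gated cells and were also called higher in other KO cells. In gated cells of WT5 these genes stood at 8.35, 3.33, 18.4 and 4.86, in the order named. In KO1 they stood at 2.63, 0.921, 2.14 and 0.203, so they did not follow the labels either. WT1 and KO2 both lay above WT2, WT3 and WT4 for each of them.

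Whether a genotype difference was particular to the gated cells was tested on the difference between gated and other kept cells of the same library. Of 3133 genes, 203 were called (6.48%), 93 with a more positive (2.97%) and 110 with a more negative difference in gated cells (3.51%). The lower ones included *Slc2a1* (-1.68, adjusted p = 0.0342), *Slc7a5* (-1.87, adjusted p = 0.0336), *Sepp1* (-2.25, adjusted p = 0.0336), *Spock2* (-1.87, adjusted p = 0.0336) and *Igf2* (-1.89, adjusted p = 0.0148). The higher ones were led by *Igfbpl1* (2.18), *Cd24a* (2.1), *Nfix* (2.1), *Gria2* (2.05) and *Rtn1* (2.01), genes of neurons and their precursors that other WT cells express above gated cells. The calls ended without KO5 (0 genes, 268 at an unadjusted p under 0.05), without WT3 (0 genes, 627), with WT5 added (0 genes, 471), with all 7 libraries (0 genes, 254), among the libraries deposited as counts (0 genes, 192), with at least 4 gate genes (0 genes, 592), and at 1800 UMIs per cell (0 genes, 617). Without WT2, 25 were called, and without KO4, 572. Among cells with at least 2 of the 9 other markers, 3 of them in KO5, 2 genes were called, *Igf2* (-1.99, adjusted p = 0.0239) and the gate gene *Cldn5*.

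Since the summed identity genes were lower in KO4 and KO5, gated cells were also scaled to that sum in place of their UMIs. This setting was chosen after the data had been seen. The median change over all genes then became 0.82 on the log2 scale, and 1178 of 4092 tested genes were called higher and 4 lower (0.0978%). Barrier transporters had a median of -0.44 with 0 called lower, and matrix genes had -0.38. Identity genes had -0.22, junction genes -0.04 and VEGF pathway genes 0.29. The scaling makes the identity sum equal in all libraries, and the junction and VEGF lists share genes with it. The medians of identity, junction and VEGF genes are therefore fixed in part beforehand and are no result. Relative to the identity sum, no transporter passed the test. This scaling raises all genes of a KO library alike. Among the genes that stayed lower were *Igf2*, *Sepp1* and *Trf*.

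*Igf2*, the imprinted insulin-like growth factor 2 made by vessels and mesenchyme, was at 3.23, 2.80 and 3.64 in WT2, WT3 and WT4, from 37, 26 and 108 UMIs. It was at 0.317 in KO4, from 8 UMIs in 69 cells, and at 0 in KO5, where up to 0.925 is allowed. The change was -1.87 (SE 0.26, limma, adjusted p = 6.70e-05) and -1.49 after scaling to the identity genes (adjusted p = 0.0106), and it was the only fall called without KO5 (-1.68, adjusted p = 0.0490), a fit in which KO4 is the lone KO library and all spread comes from the WT libraries. *Sepp1*, which encodes the selenium carrier selenoprotein P, was at 10.1, 7.80 and 8.27 against 2.68 and 0.153 (-2.23, SE 0.36, adjusted p = 0.000664; -1.47 scaled, adjusted p = 0.0302). *Trf*, which encodes transferrin, was at 1.65, 2.65 and 0.941 against 0.157 and 0 (-1.31, SE 0.28, adjusted p = 0.00336; -1.03 scaled, adjusted p = 0.0434). These 3 genes were singled out after their values had been seen. The labelled libraries outside the comparison did not separate by genotype for *Igf2*, with 0.515 in WT5 and 1.77 in KO1, nor for *Sepp1*, with 1.68 in WT5 and 7.67 in KO1.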

How the data were processed

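Neocortices at E18.5 were profiled with the Chromium 3′ v2 kit, 1 library per animal. The submitters' processing notes name Cell Ranger 2.1.0 and Seurat 2.3.4 (R 3.6.0) with mm10/GRCm38. Whole UMI counts were deposited for WT4, WT5, KO4 and KO5. For the other 5 libraries the authors deposited natural log values, ln of 1 plus UMIs per 10000 of the cell, and these were turned back into whole UMIs. Deposited cells had already been filtered by the authors, and no doublet caller was run here. Positions are from GENCODE on GRCm38, and genes were matched by symbol.

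The gate and the gene lists were chosen with earlier results of these data known. The animal is the replicate, not the cell. limma 3.58.1 (trend, robust) was run in R 4.3.3 on log2(mean over gated cells of UMIs per 10000 + 1), for genes whose mean reached 0.5. It was also run on the difference from the other kept cells. Both used Benjamini-Hochberg adjustment over all 3133 genes and a threshold of 0.05. Single values were compared with 2-sided exact permutation tests. Alternatives changed the gate, the libraries, the depth (1800 UMIs per cell), the pseudocount, the filter and the tool (edgeR 4.0.16, DESeq2 1.42.0). The study's own test takes cells as replicates and was not used.

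Named genes are *Tcf4*, the gate genes and the 20 genes most enriched in gated cells. They include the 10 largest rises and falls among called genes that had 50 UMIs or more and did not overlap. Further ones are up to 4 members of each list of highest level with all called members, and up to 10 genes with a difference unlike other cells. On simulated data of gated cells for 3133 genes, limma recovered 38% of genes with a log2 change of 2 and 7% of those with a change of 1, with 3 false calls. In that setting many changes of that size were thus missed. The simulation drew summed UMIs with a single assumed dispersion, 100 genes changed at each size and no RNA of other cell types. Its rates, also that of false calls, need not hold for the calls above. The gated cells of KO5 held 32427 UMIs in all, against 61469 to 240142 in the other compared libraries. Results of some genes are not reported here.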

Additional observations from a re-analysis of the deposited data

Results flagged for a closer look

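Among 32 groups of libraries examined for a single value far from the others, KO1 stood apart from the other KO libraries in 3. Chance flags about 1 in 20 such groups. The median was 4269 UMIs per gated cell in KO1 and 2447 to 2699 in KO2, KO4 and KO5. *Tcf4* in gated cells was 10.5 UMIs per 10000 in KO1 and 6.11 to 6.66 in the others. *Kdr* was 10.3 in KO1 and 2.80 to 3.39 in the others. KO1 was not part of the comparison of genotypes and holds 11 gated cells, and the cause was not tested.

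The genotype effect in gated cells differed from that in the other kept cells for 203 of 3133 genes (limma on the difference within each library, Benjamini-Hochberg adjusted p under 0.05). This count was 0 without KO5, without WT3, with WT5 added, with at least 4 gate genes and at 1800 UMIs per cell, with 268, 627, 471, 592 and 617 genes at an unadjusted p under 0.05 in the same order. Of the 203, 93 differed toward higher and 110 toward lower values in gated cells of the KO.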

How the results depend on the processing

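The share of gated cells was 0.144 percentage points lower in the KO. It turned higher with at least 2 gate genes (1.28), with haemoglobin-rich cells kept (0.685) and with all libraries of at least 10 gated cells (0.692). It also turned higher among libraries deposited as counts (0.401, added after seeing the data), and without WT2 (0.340) or KO5 (0.416). Leaving out each replicate gave -0.705 to 0.416. UMIs per gated cell stayed lower under every alternative run, with differences of -2678 to -1892 when a replicate was left out. The 391 called genes became 106 with at least 4 gate genes, 139 with at least 2 other endothelial markers (added after seeing the data), 0 with WT5 added, 0 with all libraries, 49 among libraries deposited as counts, 1182 scaled to the identity genes (added after seeing the data), 230 at 1800 UMIs per cell, 178 with edgeR and TMM, 199 with edgeR and RLE, 92 with DESeq2, and 9 to 510 when a replicate was left out. The 203 genes unlike other cells became 0 with at least 4 gate genes, 325 with at least 2, 313 with haemoglobin-rich cells kept, 2 with at least 2 other markers, 0 with WT5, 0 with all libraries, 0 among counts, 0 at 1800 UMIs, 0 at pseudocount 0.5, 327 at pseudocount 2, 336 at a mean of at least 0.1, 0 without a filter, and 0 to 572 when a replicate was left out. *Ly6c1* turned to 0.042 with at least 4 gate genes, and after scaling to the identity genes, which moves the median of all genes from -0.06 to 0.82 and so fixes such turns, *Flt1* turned to 0.062, *Kdr* to 0.23, *Ly6c1* to 0.47 and *Pecam1* to 0.14. The 30 named genes followed across the alternatives include the gate genes, which the rule used, and *Tcf4*. The others were chosen in these same data, mostly for large changes. Some alternatives, such as pseudocounts of 0.5 and 2, refit the same values and kept all 30. The tally was thus fixed in part beforehand and is no measure of robustness. Of the alternatives for the log2 changes of these 30 genes, 597 kept direction and call, 146 lost the call, 2 gained it and 5 reversed. The cause was not tested. Fits without cells that hold at least 2 mural or neuronal genes could not be made, because KO4 and KO5 then had 0 cells. With a replicate block over WT4 with KO4 and WT5 with KO5, 33 genes were called, and 0 for a difference unlike other cells (307 at an unadjusted p under 0.05). The deviations of same-numbered libraries correlated at 0.255 over 2 pairs and the labels do not tie numbers to litters, so the libraries are not treated as paired. Depth limits the low genes, since 0 UMIs in KO5 allow up to 0.925 per 10000.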
